A study of Mus musculus with 3 samples.

Results

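The sarcomeric myosin heavy chains are the motor proteins of the thick filament, and 6 of their genes were examined here: Myh3, Myh8, Myh2, Myh1, Myh4 and Myh7. They were taken by symbol from a deposited read-count table of 20162 mouse genes, and each symbol stood at 1 identifier. Polyadenylated RNA was sequenced from C2C12 cells, a mouse myoblast line that forms myotubes in low serum. All cell populations carried a lentiviral short hairpin RNA (shRNA), were grown under puromycin and were differentiated for 7 days in medium with 2% horse serum. The control population expressed a control shRNA (1 library, labelled ShSC), and 2 populations expressed different shRNAs against Tead4, which codes for a transcription factor that binds DNA through its TEA domain (1 library each, labelled ShA and ShB). The labels describe infected populations rather than clones and mention no repeat culture of any shRNA. No p-value therefore rests on repeat cultures: each sets a difference against a spread estimated from the 2 shRNA libraries and from all genes together.

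Each myosin heavy chain has an ATP-splitting head that pulls on actin and a long tail that packs into the thick filament. The isoform sets much of a fibre's shortening speed. During mouse muscle development the embryonic isoform (Myh3) and the perinatal isoform (Myh8) come first, and the adult fast isoforms IIa (Myh2), IIx (Myh1) and IIb (Myh4) or the slow isoform (Myh7) later replace them in most muscles. Myh3, Myh2, Myh1, Myh4 and Myh8 lie in this order in a cluster on chromosome 11, and Myh7 lies beside the cardiac gene Myh6 on chromosome 14.

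The stretches before the gene starts are shown for the cluster genes because the 3 adult fast genes and Myh8 share a run of bases there that Myh3 lacks. These 100-base stretches come from the 250 bases before the RefSeq start of each gene (build GRCm38.p6, not the mm9 build of the read counts, 5′ to 3′). Capitals mark the longest run common to all 5 genes, TCAAATT, and, after it, the longest run common to Myh1, Myh2, Myh4 and Myh8, the 14-base TTCTAATTATATCC. 
Myh1 (chr11:67199876-67199975, plus strand): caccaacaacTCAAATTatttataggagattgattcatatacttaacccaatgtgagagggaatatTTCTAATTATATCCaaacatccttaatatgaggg
Myh2 (chr11:67170844-67170943, plus strand): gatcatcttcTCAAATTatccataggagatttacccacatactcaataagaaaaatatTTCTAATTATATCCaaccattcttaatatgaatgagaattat
Myh4 (chr11:67237615-67237714, plus strand): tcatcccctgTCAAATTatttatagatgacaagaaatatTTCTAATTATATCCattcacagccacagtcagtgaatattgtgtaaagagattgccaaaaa
Myh8 (chr11:67277010-67277109, plus strand): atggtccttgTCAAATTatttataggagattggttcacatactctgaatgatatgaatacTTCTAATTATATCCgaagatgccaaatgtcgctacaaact
Myh3 (chr11:67078080-67078179, plus strand): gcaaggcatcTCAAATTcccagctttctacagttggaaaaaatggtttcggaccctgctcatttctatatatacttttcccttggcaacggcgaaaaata

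Searched on both strands of the 250 bases before 32851 RefSeq starts, the 14-base run was in 4 windows (0.0122%), those of Myh1, Myh2, Myh4 and Myh8. Because the run was chosen as common to these 4 genes, its presence in their windows was fixed in advance and is no test. The 9 letters TATTTATAG, an A/T-rich sequence of the kind bound by MEF2 factors, were in 0.408% of windows and in those of Myh1, Myh4 and Myh8, where they begin at the last base of the TCAAATT run. They are the end of the 15-base run that is the longest common to Myh1, Myh4 and Myh8, so these matches are not separate from that run. The MCAT motif CATTCC, which TEAD factors are known to bind, was in 12.6% of all windows and, among the members, in those of Myh1 and Myh4 and in 1 of the 2 windows of Myh7. These matches are printed here with CATTCC, or its reverse complement GGAATG, in capitals, because Tead4 was the targeted factor. A match describes letters and does not show binding.
Myh1 (chr11:67200069-67200101, plus strand): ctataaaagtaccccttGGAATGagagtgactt
Myh4 (chr11:67237564-67237603, plus strand): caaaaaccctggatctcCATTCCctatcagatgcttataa
Myh7 (chr14:54994805-54994844, minus strand): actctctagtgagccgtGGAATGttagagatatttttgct

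Tead4 had 1256 reads in ShSC, 397 in ShA and 170 in ShB, and passed the test as lower (log2 fold change -2.35, SE 0.27, edgeR quasi-likelihood adjusted p = 2.82e-06). The libraries held 15594305 to 19918954 counted reads. Levels are given as CPM, the depth-scaled read count after trimmed-mean-of-M-values (TMM) scaling. In these RNA samples, fewer cells of a type and less RNA per cell cannot be told apart.

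Of the 6 genes, Myh3 and Myh7 fell with the Tead4 shRNAs, Myh4 rose, and Myh1, Myh2 and Myh8 did not pass the test. Across all genes, 9.82% of the 14478 tested passed it (5.34% higher and 4.48% lower). The median log2 fold change of the 6 genes was 0.18, beside 0.02 over all tested genes, and it lies between members that moved in opposite directions. The control was a single library, and its spread was taken from that between the 2 shRNA libraries, which carry different shRNAs. For each gene this spread was drawn towards the trend over all genes (1 residual and 20.9 prior degrees of freedom). A likelihood-ratio test in edgeR, tried after seeing the data, took all 3 libraries as a single group to estimate the dispersion. It called 0 genes, members included, while 540 genes and 1 member had an unadjusted p under 0.05. Its dispersion counts the difference between the groups as spread, and Tead4 itself was not called. Its 0 calls therefore cannot decide whether a member changed.

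Myh3, the embryonic isoform, had 67886 reads in ShSC, 29003 in ShA and 20434 in ShB, or 4228, 1442 and 1297 CPM. It was high in ShSC and low in both shRNA libraries. Its level was 2.93-fold lower in ShA (log2 ratio -1.55, 95% exact counting interval -1.57 to -1.53) and 3.26-fold lower in ShB (-1.71, -1.73 to -1.68). Over both libraries it fell by 1.63 on the log2 scale (SE 0.24, edgeR adjusted p = 7.61e-05). By reads, not corrected for length, Myh3 ranked 4 among all genes in ShSC, 46 in ShA and 63 in ShB.

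Myh8, the perinatal isoform, did not pass the test. Its level was 189.8 CPM in ShSC, 193.2 in ShA and 170.7 in ShB (3048, 3887 and 2690 reads), so the control value lay between those of the 2 shRNA libraries. The log2 ratios were 0.03 (-0.04 to 0.09) and -0.15 (-0.23 to -0.08), and the log2 fold change over both was -0.06 (SE 0.23, edgeR adjusted p = 0.925).

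Myh4, the fastest adult isoform (IIb), had 10213 reads in ShSC, 26485 in ShA and 20128 in ShB, or 636 CPM against 1317 and 1277. Both shRNA libraries were high and ShSC low. The level was 2.07-fold higher in ShA (log2 ratio 1.05, 1.02 to 1.08) and 2.01-fold higher in ShB (1.01, 0.97 to 1.04). Myh4 rose by 1.03 on the log2 scale over both libraries (SE 0.25, edgeR adjusted p = 0.0108).

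Myh1, the IIx isoform, was the most abundant member in both shRNA libraries and ranked after Myh3 in ShSC. It stood at 2455 CPM in ShSC, 3216 in ShA and 3344 in ShB (39413, 64688 and 52690 reads). These were 1.31-fold and 1.36-fold the control level (log2 ratios 0.39, 0.37 to 0.41, and 0.45, 0.43 to 0.47). The counting intervals excluded no change in each library, yet Myh1 did not pass the test (log2 fold change 0.42, SE 0.25). Its unadjusted edgeR p was 0.106 and its edgeR adjusted p = 0.354.

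Myh2, the IIa isoform of oxidative fast fibres, stood at 234 CPM in ShSC, 369 in ShA and 351 in ShB (3758, 7431 and 5527 reads). Both shRNA libraries were above ShSC, by 1.58-fold (log2 ratio 0.66, 0.60 to 0.72) and 1.499-fold (0.58, 0.52 to 0.64). Myh2 had an unadjusted p of 0.0175 and missed the threshold after adjustment (log2 fold change 0.62, SE 0.24, edgeR adjusted p = 0.117).

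Myh7, the slow isoform that the heart also expresses, stood at 289 CPM in ShSC, 195.2 in ShA and 122.9 in ShB (4640, 3927 and 1936 reads). ShSC was highest and ShB lowest. The level was 1.48-fold lower in ShA (log2 ratio -0.57, -0.63 to -0.50) and 2.35-fold lower in ShB (-1.23, -1.31 to -1.16). Over both, Myh7 fell by 0.86 (SE 0.25, edgeR adjusted p = 0.0318), and this call ended under RLE scaling (adjusted p = 0.0585), upper-quartile scaling (0.0639) and DESeq2 (0.0632).

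**Figure D1:**
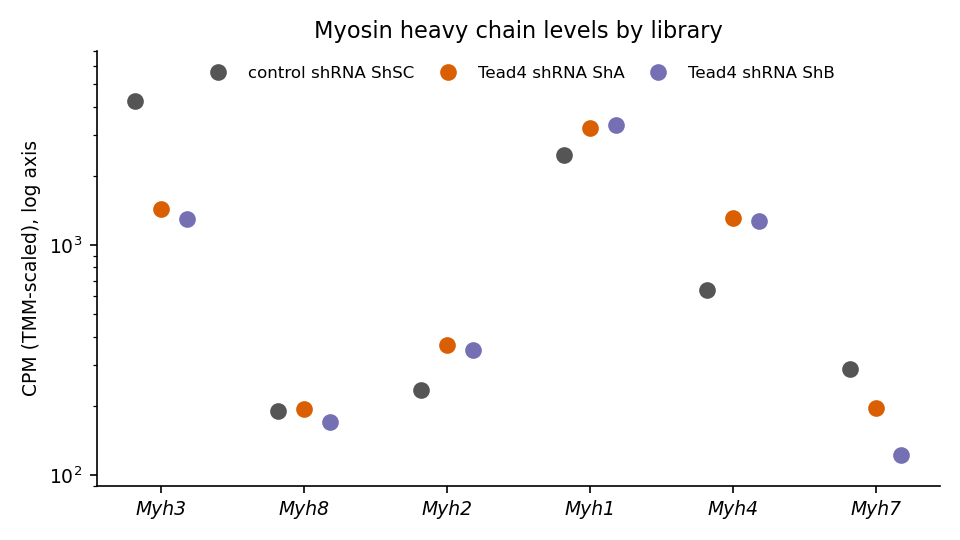
Level of each myosin heavy chain gene in CPM (TMM-scaled, log axis), with 1 point per library: control shRNA ShSC in grey, Tead4 shRNA ShA in orange and ShB in purple. Myh3 stands at 4228 CPM in ShSC against 1442 and 1297 CPM, and Myh4 at 636 CPM against 1317 and 1277 CPM.

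Between the 2 Tead4 shRNA libraries, the gap was larger for Myh7 than for each of the other 5 members. The log2 ratio of ShB to ShA was 0.06 for Myh1 (0.04 to 0.07), -0.04 for Myh4 (-0.07 to -0.02) and -0.07 for Myh2 (-0.12 to -0.02). It was -0.15 for Myh3 (-0.18 to -0.13), -0.18 for Myh8 (-0.25 to -0.11) and -0.67 for Myh7 (-0.75 to -0.59). These intervals cover counting error only, and each shRNA had a single library, so the difference between shRNAs was not tested. A change of at least 2-fold with an interval that excludes no change was reached by Myh4 (higher) and Myh3 (lower) in ShA, where 8.69% and 5.88% of all tested genes did so. In ShB it was reached by Myh4 (higher) and by Myh3 and Myh7 (lower), against 6.41% and 4.73% of all tested genes. Myh4 in ShB sat at the 2-fold limit and fell below it under RLE scaling and with the factors of the deposited normalized values.

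**Figure D2:**
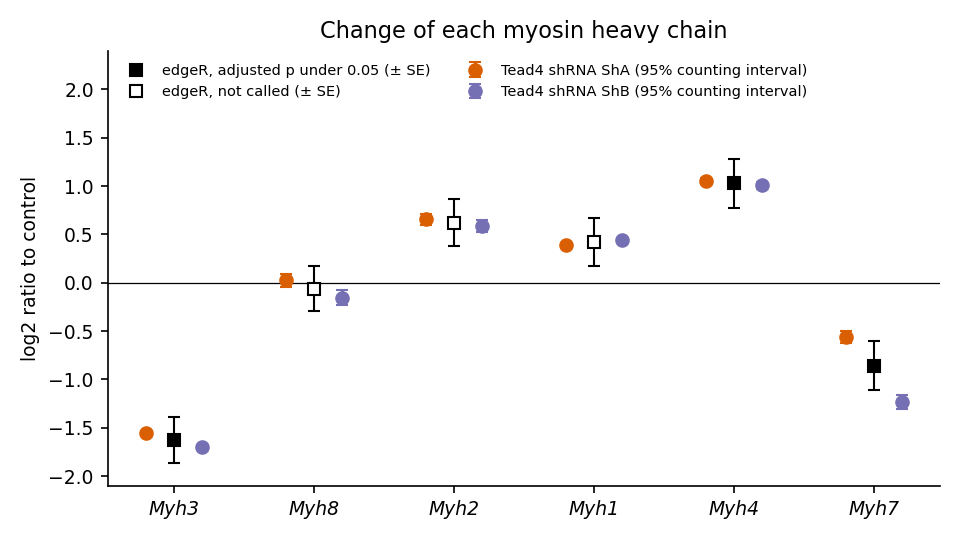
Log2 ratio to ShSC for each gene: circles are the single shRNA libraries with 95% counting intervals, and squares are the edgeR log2 fold changes with their SE, filled where the adjusted p was under 0.05. Myh3 and Myh7 are filled below zero and Myh4 above it.

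In both shRNA libraries a smaller share of the family's reads came from the embryonic isoform and a larger share from the adult fast isoforms, and the family's summed level was somewhat lower. Together the 6 genes took 0.786% of all reads in ShSC (0.781 to 0.790), 0.680% in ShA (0.676 to 0.683) and 0.663% in ShB (0.659 to 0.667). The summed level was 8031, 6732 and 6562 CPM, a log2 ratio of -0.25 in ShA (-0.27 to -0.24) and -0.29 in ShB (-0.30 to -0.28). Without Myh3, the other 5 genes summed to 3803 CPM in ShSC and to 5290 and 5265 CPM in ShA and ShB.

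Myh3 made up 52.6% of the family's reads in ShSC (95% exact interval 52.4 to 52.9), 21.4% in ShA (21.2 to 21.6) and 19.8% in ShB (19.5 to 20.01). Myh1 made up 30.6% (30.3 to 30.8), 47.8% (47.5 to 48.0) and 51.0% (50.6 to 51.3), so the leading isoform was Myh3 in ShSC and Myh1 in both shRNA libraries. The share of Myh4 was 7.92% (7.77 to 8.07), 19.6% (19.3 to 19.8) and 19.5% (19.2 to 19.7). Shares sum to 100%, so a fall of the leading isoform raises the others even where their levels stay.

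The minor isoforms each stayed under 6% of the family. Myh2 made up 2.91% in ShSC, 5.49% in ShA and 5.35% in ShB. Myh7 made up 3.598%, 2.90% and 1.87%, and Myh8 2.36%, 2.87% and 2.60%. The coding sequences are nearly equal in length (5805 to 5826 bases), and shares of reads per kilobase of coding length were 52.7%, 21.4% and 19.8% for Myh3. Per kilobase of coding length, the order of levels in ShSC was Myh3 (726 CPM), Myh1 (421), Myh4 (109), Myh7 (49.8), Myh2 (40.2) and Myh8 (32.7). In ShA it was Myh1 (552), Myh3 (248), Myh4 (226), Myh2 (63.4), then Myh7 (33.6) and Myh8 (33.3). In ShB it was Myh1 (574), Myh3 (223), Myh4 (220), Myh2 (60.2), Myh8 (29.4) and Myh7 (21.2). Neighbours such as Myh3 and Myh4, or Myh7 and Myh8, stood close together in ShA, and the order of genes within a library was not tested.

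**Figure D3:**
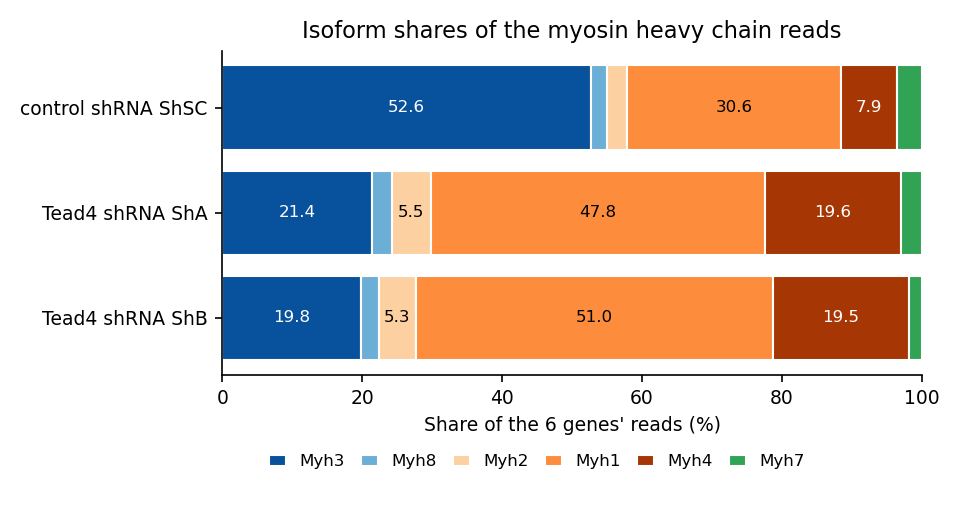
Share of the reads of the 6 myosin heavy chain genes taken by each gene (stacked bars, percent), with 1 bar per library. The embryonic Myh3 takes 52.6% in ShSC and 21.4% and 19.8% with the Tead4 shRNAs, while Myh1 goes from 30.6% to 47.8% and 51.0%.

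Myh3 and Myh8 together, the developmental isoforms, went from 55.0% of the family's reads to 24.3% and 22.4%. The adult fast isoforms together went from 41.4% to 72.8% and 75.8%. There were 1.27 reads of Myh3 for each adult fast read in ShSC, against 0.294 in ShA and 0.261 in ShB. Within the adult fast group, the share of Myh4 was larger in both shRNA libraries than in ShSC. It took 19.1% of that group's reads in ShSC (18.8 to 19.5), 26.9% in ShA (26.6 to 27.1) and 25.7% in ShB (25.4 to 26.0), and Myh1 took 73.8%, 65.6% and 67.3%. Myh2 took 7.04% (6.82 to 7.26), 7.54% (7.37 to 7.70) and 7.06% (6.88 to 7.24), and the intervals of the ShSC and ShB libraries overlapped.

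Reads of these genes can be hard to assign, because the coding sequences are alike. In GENCODE M21 transcripts, percent identity over the aligned coding bases was 91.1% for Myh1 and Myh2, 90.2% for Myh1 and Myh4, 80.9% for Myh3 and Myh8 and 76.7% for Myh3 and Myh7. Reads were 72 bases long. Of all 72-base windows of a member's coding sequence, an exact copy in another member, Myh6 or Myh13 was found for 2.10% in Myh3, 11.03% in Myh4, 14.7% in Myh8, 16.95% in Myh7, 18.1% in Myh2 and 18.3% in Myh1. Allowing up to 2 mismatches, the share was 11.7% in Myh3 and reached 47.3% in Myh1. How the authors counted such reads is not given in the sources used here, so values of the adult fast genes, Myh8 and Myh7 are uncertain to that extent, and those of Myh3 less so. The exact copies in Myh7 were shared with Myh6. The reads of Myh7 stood at 4.11, 3.73 and 3.55 per read of Myh6 in the ShSC, ShA and ShB libraries. Myh1, Myh2 and Myh7 also overlap antisense transcripts in that annotation, and the library kit does not mark strand.

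Along the chromosome 11 cluster, genes with log2 fold changes of opposite sign lay side by side. Myh2, Myh1 and Myh8 were not called, so no such pair within the cluster had both genes called. In chromosomal order the log2 fold changes were -1.63 for Myh3, 0.62 for Myh2, 0.42 for Myh1, 1.03 for Myh4, -0.06 for Myh8 and -0.79 for Myh13, the extraocular isoform. Myh13, at 42.2 CPM in ShSC against 25.1 and 23.6 CPM, fell as well (SE 0.23, edgeR adjusted p = 0.0292), a call that ended with DESeq2 (adjusted p = 0.138). The nearest listed genes outside the cluster were Sco1 beside Myh3 (-0.43, SE 0.23, not called) and Gas7 beyond Myh13, which rose by 1.42 (SE 0.42, edgeR adjusted p = 0.0328) from 2.86 CPM in ShSC.

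**Figure D4:**
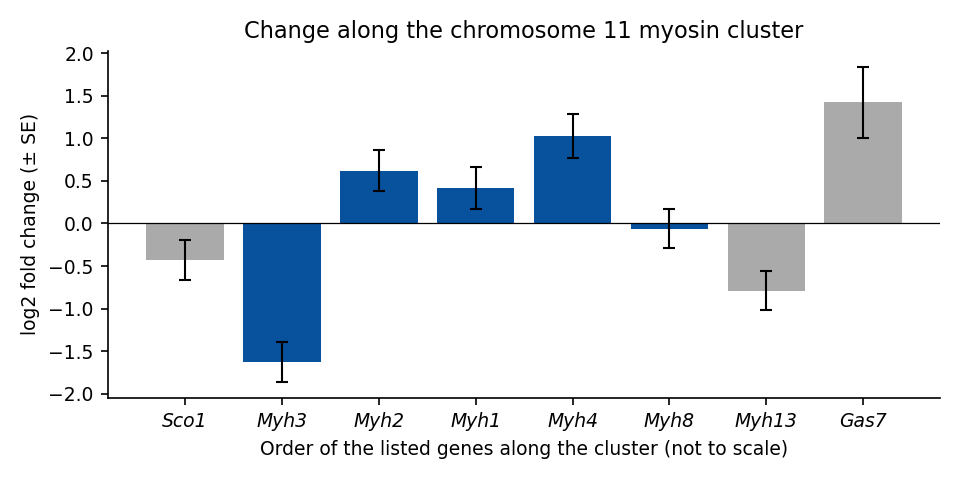
Log2 fold change of Tead4 shRNA against control (bars, with the SE of edgeR) for the listed genes in their order along the chromosome 11 myosin cluster, not to scale, with members in blue and other genes in grey. Myh3 lies below zero at -1.63 and Myh4 above it at 1.03.

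Among 6 tested myosin heavy chains outside the 6 members, 2 rose and 2 fell (median log2 fold change -0.01), where 5.34% of all tested genes rose and 4.48% fell. The slow-type gene Myh7b rose from 6.17 CPM to 19.2 and 15.0 CPM (1.47, SE 0.31, edgeR adjusted p = 0.00320), and the nonmuscle gene Myh10 rose by 1.08 (SE 0.28), with log2 ratios of 1.41 in ShA and 0.64 in ShB. Myh13 fell, and the nonmuscle gene Myh14 fell by 2.16 (SE 0.46) from 108 reads to 24 and 29, a call that ended with DESeq2. The cardiac gene Myh6 (-0.69, SE 0.24) and the abundant nonmuscle gene Myh9 (0.66, SE 0.30), both named after their values were seen, were not called with edgeR. Without the filter on low counts Myh6 passed as lower (edgeR adjusted p = 0.0336). Its log2 ratios were -0.43 in ShA and -1.02 in ShB. Myh9 had log2 ratios of 1.05 in ShA and 0.14 in ShB. The smooth muscle gene Myh11 had 3, 5 and 0 reads and was not tested.

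Of 12 tested genes of fast fibres other than myosin heavy chains, 6 fell and 0 rose with edgeR, where 4.48% of all tested genes fell and 5.34% rose. A count of 0 higher is near that background in a list of this size, and 0 were higher at an unadjusted p under 0.05 or with DESeq2 or limma-voom. The calcium buffer Pvalb, named after its value was seen, was not called, with log2 ratios of -0.17 in ShA (-0.58 to 0.25) and 0.79 in ShB (0.41 to 1.17). The median log2 fold change of the 12 was -0.72 (-0.94 in ShA and -0.54 in ShB), and 4 fell under RLE or upper-quartile scaling. The fast troponin subunits Tnnt3 (-1.15, SE 0.24), Tnnc2 (-0.84, SE 0.24) and Tnni2 (-0.80, SE 0.25) fell, as did the fast essential light chain Myl1 (-1.08, SE 0.29), with log2 ratios of -1.66 in ShA and -0.67 in ShB. Of 10 tested slow genes, 8 fell and 0 rose with edgeR (median -1.41), and 0 were higher at an unadjusted p under 0.05 or with DESeq2 or limma-voom. They included the reticulum calcium pump Atp2a2 (-1.37, SE 0.24), slow troponin subunits Tnni1 (-0.89, SE 0.26) and Tnnt1 (-1.67, SE 0.23) and myoglobin (Mb, -1.85, SE 0.28). Of 11 tested developmental muscle genes, 4 fell and 0 rose with edgeR (median -0.60), with 0 higher at an unadjusted p under 0.05 or with DESeq2 or limma-voom. Those that fell were the embryonic light chain Myl4 (-1.04, SE 0.24), the fetal receptor subunit Chrng (-0.90, SE 0.25), Tnnt2 (-0.76, SE 0.24) and Myl6b (-1.74, SE 0.21), which also stands in the slow list. Another scaling ended the calls of Tnni2, Tnnc2, Tnni1, Tnnt2 and Myl1, and DESeq2 those of Myl1 and Mb. The newer quasi-likelihood method also ended those of Tnni1 (adjusted p = 0.0576) and Tnnt2 (0.0763), and limma-voom that of Tnnt2 (0.0577).

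**Figure D5:**
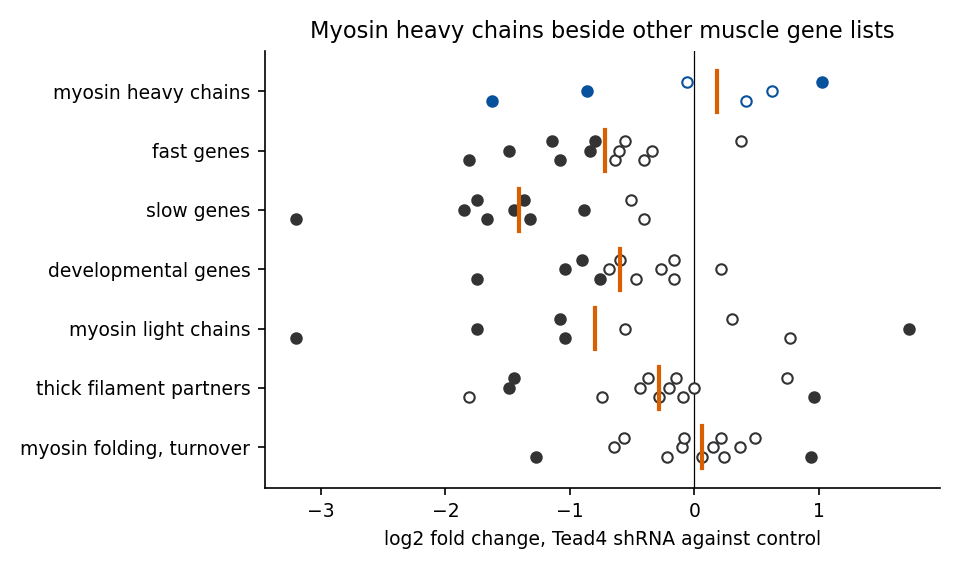
Log2 fold change of Tead4 shRNA against control for each tested gene (points, filled where the edgeR adjusted p was under 0.05) of the 6 myosin heavy chains and of other muscle gene lists, with the list's median as an orange bar. The median is 0.18 for the myosin heavy chains and -0.72, -1.41 and -0.60 for the fast, slow and developmental lists.

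Myosin light chains, which bind the neck of the heavy chain, fell in 4 of 8 tested genes and rose in 1 (median -0.80). Over all tested genes 4.48% fell and 5.34% rose, the background for each list in this paragraph. Myl1, Myl4 and Myl6b fell, as did the slow regulatory chain Myl2, named after its value was seen (-3.20, SE 0.25, from 46.6 CPM in ShSC to 4.97 and 5.14 CPM). These 4 also stand in the fast, slow or developmental lists above, as do Mybpc1 and Mybpc2, so the lists are not independent. The light chain that rose was the smooth muscle and nonmuscle regulatory chain Myl9 (1.73, SE 0.27). The abundant fast regulatory chain Mylpf, named after its value was seen, was not called (-0.55, SE 0.26). Of 13 tested thick filament partners, the myosin-binding proteins Mybpc1 (-1.45, SE 0.22) and Mybpc2 (-1.49, SE 0.26) fell and the myosin light chain kinase Mylk4 rose by 0.96 (SE 0.26), a call that ended with DESeq2; the median was -0.28. Of 13 tested genes of myosin folding and turnover, the ubiquitin ligase Trim63 (MuRF1), which acts on thick filament proteins, fell by 1.27 (SE 0.24). Cryab, a small chaperone of the sarcomere, rose by 0.94 (SE 0.26), and the list's median was 0.06. With 1 lower and 1 higher of 13, the folding and turnover list was near the background. The myosin chaperone Unc45b, named after its value was seen, was not called (-0.09, SE 0.22).

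Of 26 tested genes known as regulators of myosin isoforms or of muscle fibre type, 1 rose and 1 fell (median 0.26), a share of called genes near the 9.82% of all tested genes. At an unadjusted p under 0.05, 8 were higher and 1 lower with edgeR, and the count of higher calls ranged from 0 (DESeq2 and the likelihood-ratio test) to 3 (no filter on low counts). Myog, the differentiation factor myogenin, fell by 1.44 (SE 0.24), and Nfatc4, a calcineurin-dependent factor, rose by 1.48 (SE 0.41) from 41 reads to 151 and 106, a call that ended with DESeq2. The fast-fibre factor Tbx15, named after its value was seen, was not called (-0.37, SE 0.24).

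Markers of myotubes, which C2C12 cells form in low serum, and of 7 other cell types or states were read from the same libraries. Of all tested genes, 4.48% fell and 5.34% rose with edgeR. All 8 myotube markers were tested; they summed to 16218 CPM in ShSC, 10711 in ShA and 12918 in ShB, and 4 of 8 fell: Tnnt3, Neb (-1.20, SE 0.23), Ckm (-1.06, SE 0.24) and Mb. Of these, Tnnt3 also stands in the fast list and Mb in the slow list. Cardiac markers summed to 101.3, 78.2 and 62.1 CPM, most of it Myh6, with Nppa at 0, 1 and 0 reads. Neither edgeR nor DESeq2 called a gene among their 4 tested members (0 each), while Myh6 had an unadjusted edgeR p of 0.00862. Smooth muscle markers summed to 1708, 4116 and 3203 CPM, and 3 of 5 tested members rose (Acta2, Tagln and Actg2, the first not with the newer quasi-likelihood method). Markers of dividing cells summed to 34.3, 144.1 and 142.0 CPM, and 5 of 5 rose, Mki67 by 2.59 (SE 0.28). Of 4 tested reserve myoblast markers, Cd34 (1.23, SE 0.27) and Spry1 (1.18, SE 0.26) rose and Myf5 (-1.35, SE 0.24) fell; they summed to 79.7, 95.6 and 111.4 CPM, with Pax3 at 0, 1 and 0 reads. Adipocyte, bone-forming and macrophage markers had 1, 2 and 2 tested members, of which 0 were called with edgeR or DESeq2, and summed to at most 7.85, 37.7 and 4.44 CPM. At an unadjusted p under 0.05, 0 of these genes passed with the edgeR fit that gave the calls or with DESeq2. In other edgeR runs, 1 macrophage marker was higher with the newer quasi-likelihood method and 1 without the filter on low counts. The part of these cell states in the myosin values was not tested.

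Genes with the most similar pattern were sought among 7942 tested genes of at least 20 CPM, by the distance between their pairs of log2 ratios over the 3 libraries. For Myh3 they were Xpot, a tRNA export factor (distance 0.01, log2 ratios -1.55 and -1.69), and the kinase Plk2 (distance 0.03, -1.56 and -1.67). For Myh4 they were Lsm6 (0.05, with 1.09 and 1.01) and Islr (0.05, with 1.05 and 0.96). Myh7 had no close neighbour, the nearest being the reticulum stress sensor Ern1 (0.20, with -0.76 and -1.19) and Nucb2 (0.22). For Myh8, Myh2 and Myh1 the nearest were Hsd3b7, Cadm1 and Pgrmc1, at distances of 0.01, 0.01 and 0.003. These values describe 2 ratios that share ShSC.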

How the data were processed

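Raw counts of reads per Ensembl gene were deposited by the authors for 3 libraries of 72-base single-end reads. The deposited normalized values are a score, each the raw count times 1 factor per library (1.00, 0.801 and 1.02 for ShSC, ShA and ShB), rounded to whole numbers; 0 values differed from that product by more than rounding. Without role or order, DESeq, Cufflinks 0.8.2, TopHat 1.0.12 and the mm9 build are listed in the submitters' processing notes. The counting program, annotation and handling of reads that map to several genes are not given in the sources used here.

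Genes passing filterByExpr (14478) were TMM-scaled and tested with edgeR 4.0.16 (glmQLFit, legacy method; R 4.3.3), 2 Tead4 shRNA libraries against 1 control library, with Benjamini-Hochberg adjustment over all tested genes and a threshold of 0.05. This leaves 1 residual degree of freedom (prior degrees of freedom 20.9, biological coefficient of variation 16.4%). The SE is the absolute log2 fold change over the square root of F. Single libraries were compared by ratios of scaled counts with 95% exact (Clopper-Pearson) intervals, which cover counting error only. The alternatives were RLE, upper-quartile and total-count scaling, no filter, the newer quasi-likelihood method, DESeq2 1.42.0, limma-voom (limma 3.58.1) and leaving out each shRNA library. The scripts were tested on simulated data.

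Gene names in the table were used as deposited. Promoter sequences and gene order come from RefSeq (GRCm38.p6), where all 6 members matched by symbol, and coding sequences from GENCODE M21; the coding part was taken as the longest open reading frame of each gene's transcripts. Named genes were the 6 members, Tead4, up to 4 called genes of highest CPM per list (2 where none was called) and the nearest patterns; any other gene in the text was chosen after its values were seen. The members and lists were chosen with earlier results of these data known. A result of 1 listed gene is not reported here.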

Additional observations from a re-analysis of the deposited data

How the results depend on the processing

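The direction of Myh3, Myh4 and Myh7 held under every scaling, filter and tool run and with either shRNA library left out. The calls of Myh3 and Myh4 ended only under the likelihood-ratio test with 1 dispersion over all libraries, chosen after seeing the data, which called 0 genes higher and 0 lower (members 0 and 0). That dispersion takes in the difference between the groups, and the call of Tead4 ended there as well. DESeq2 called 448 genes higher and 374 lower. Over the other settings the adjusted p ranged from 5.26e-10 to 9.07e-04 for Myh3, from 5.48e-04 to 0.0215 for Myh4 and from 0.00445 to 0.0639 for Myh7. Members called lower numbered 1 (Myh3) under RLE scaling, upper-quartile scaling and DESeq2. In ShB, members at least 2-fold higher numbered 0 under RLE scaling and the deposited factors. With Myh6, Myh7b and Myh13 in the family, the Myh3 share was 51.9% in ShSC and 21.1% in ShA. Leaving out 1 shRNA library left 1 library against 1, values with no test. The log2 value of Myh8 was then -0.15 or 0.026 and that of Runx2, a bone-forming marker, -0.11 or 0.32. No scaling moved the median of all genes by more than 0.05 on the log2 scale. No paired analysis was possible because the labels give the groups no shared replicate numbers and there is 1 control library.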
